A study of Arabidopsis thaliana with 6 samples.

Results

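The genes examined here carry jasmonate through the plant: the enzymes that make the hormone, the JAZ proteins that hold its response back, the enzymes that break it down, and a few factors and storage proteins at its output. Membership was set by gene identifier alone from a list of 36 loci, covering lipoxygenases (LOX), allene oxide synthase and cyclases (AOS, AOC), OPR3, OPCL1, ACX1, JAR1, JMT, JAZ1 to JAZ12, the CYP94 and JOX oxidases, VSP1, VSP2, MYC2 and ORA47. Of these, 27 were found among the 11167 genes of the table and 26 were among the 10622 genes tested. The remaining 9, namely JMT and JAZ1, JAZ3, JAZ4, JAZ7, JAZ8, JAZ9, JAZ10 and JAZ11, were not analysed here.

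RNA came from whole seedlings of the *flu* 1-1 mutant of Arabidopsis thaliana, ecotype Col-0, 2 weeks old. The 4 h group (3 libraries) had been kept in darkness in water for 4 h and the 0 h group (3 libraries) for 0 h, in both cases followed by 30 min of light at 30 µE after an hour or more of equilibration in water. Both groups carry the mutation, which removes a brake on tetrapyrrole synthesis so that protochlorophyllide builds up in the dark and yields singlet oxygen in the light, and no wild type or light-kept group was included. Darkness, the return to light after it with any singlet oxygen formed, time in water and time of day therefore cannot be told apart. The hours and the light step follow the protocol and design text, whereas each sample's treatment field calls its 0 h or 4 h a light exposure. The data list of the paper assigns this data set to cycloheximide treatment, and the sample titles, followed here, name *flu*. What 4 h over 0 h of darkness means rests on these choices. For RNA extraction the methods describe pools of whole seedlings as biological replicates, in a passage on another assay, and the labels do not tie the sequenced libraries to separate cultures. A p-value therefore reflects the spread between these libraries, which may be technical.

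Jasmonate is made from a plastid fatty acid. Lipoxygenases add oxygen, AOS and AOC convert the product to a cyclic intermediate, and OPR3, OPCL1 and the acyl-CoA oxidase ACX1 reduce and shorten it in the peroxisome. JAR1 couples jasmonate to isoleucine, and the conjugate brings the receptor COI1 and a JAZ repressor together, which leads to destruction of the repressor and frees factors such as MYC2. CYP94 enzymes oxidise the conjugate and JOX enzymes hydroxylate jasmonate itself, both ending the signal. Wounding is known to switch many of these genes on quickly, and several, JAZ and oxidase genes included, are themselves targets of the hormone.

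The libraries held between 1012425 and 2185464 reads in the 4 h group and between 1487666 and 1924910 in the 0 h group. Levels are given as CPM (a gene's reads relative to the TMM-scaled library size), which are read from transcript ends and compared for a gene between libraries, not between genes. On this scale 3 reads, the limit that a count of 0 allows, corresponded to 1.37 to 2.97 CPM in the 4 h libraries and 1.54 to 2.06 CPM in the 0 h libraries. These limits cover counting error alone. In a principal component analysis, replicate 3 of the 4 h group lay away from its partners along component 2, with a score of 40.1 where they had -28.8 and -15.0. All 6 green-leaf markers were present, summing to between 40420 and 50760 CPM in the 4 h and between 43690 and 50040 CPM in the 0 h libraries, sums made up mainly of RBCS1A and CAB1. Of the 6, PRK (log2 -0.91, edgeR adjusted p = 3.98e-05) and RCA (log2 -0.61, edgeR adjusted p = 0.00222), both of carbon fixation, were lower after 4 h. The root markers were low, 6 of 7 being in the table with sums of 107.8 to 174.3 CPM in the 4 h and 108.7 to 179.0 CPM in the 0 h libraries, and none of the 5 flower and seed markers was in the table. Among the root markers the phosphate transporter gene PHT1;1 was lower after 4 h, at 27.8, 34.3 and 22.7 CPM, against 59.3, 84.1 and 37.2 CPM after 0 h (log2 -1.10, edgeR adjusted p = 0.00321). The other 5 were not called and went either way, CASP1 at log2 0.46, SCR at 0.72, PYK10 at -0.13, NRT2.1 at -1.397 and COBL9 at -2.225. The part of these markers in the results on jasmonate genes was not tested. In whole seedlings fewer cells of a type and less RNA per cell cannot be told apart.

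Most of the measured jasmonate genes showed no detectable difference between 4 h and 0 h of darkness, and single members differed in either direction. ORA47, LOX4 and AOC2 were lower in the 4 h group and the oxidase gene CYP94C1 was higher. These are 4 of 26 members tested (15.4%) at an edgeR adjusted p under 0.05, against 16.6% of all genes tested (8.37% higher and 8.18% lower). The median log2 fold change (4 h over 0 h) was -0.25 over the members and -0.06 over all genes, and 14 of 26 members had a negative value, 53.8% against 53.9% of all genes. The share of members called was thus close to that of the table as a whole, and 6 of 26 (23.1%) showed no overlap between groups, against 32.3% of all genes. ORA47 passed the read filter through its 0 h libraries alone, so it could be tested only because it was high there, and without it 3 of 25 members (12.0%) were called. The share called among all genes that pass the filter in a 4 h library was not computed. Without 4 h replicate 3 the calls of the other members stood, at log2 -1.27 for LOX4 (edgeR adjusted p = 0.00426), log2 -0.70 for AOC2 (edgeR adjusted p = 0.0193) and log2 0.94 for CYP94C1 (edgeR adjusted p = 0.0361). In the synthesis group 2 of 13 were lower and none higher. Of the 3 JAZ genes tested none was called, of the 6 turnover genes 1 was higher, and of the 4 factors and storage protein genes 1 was lower.

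**Figure D1:**
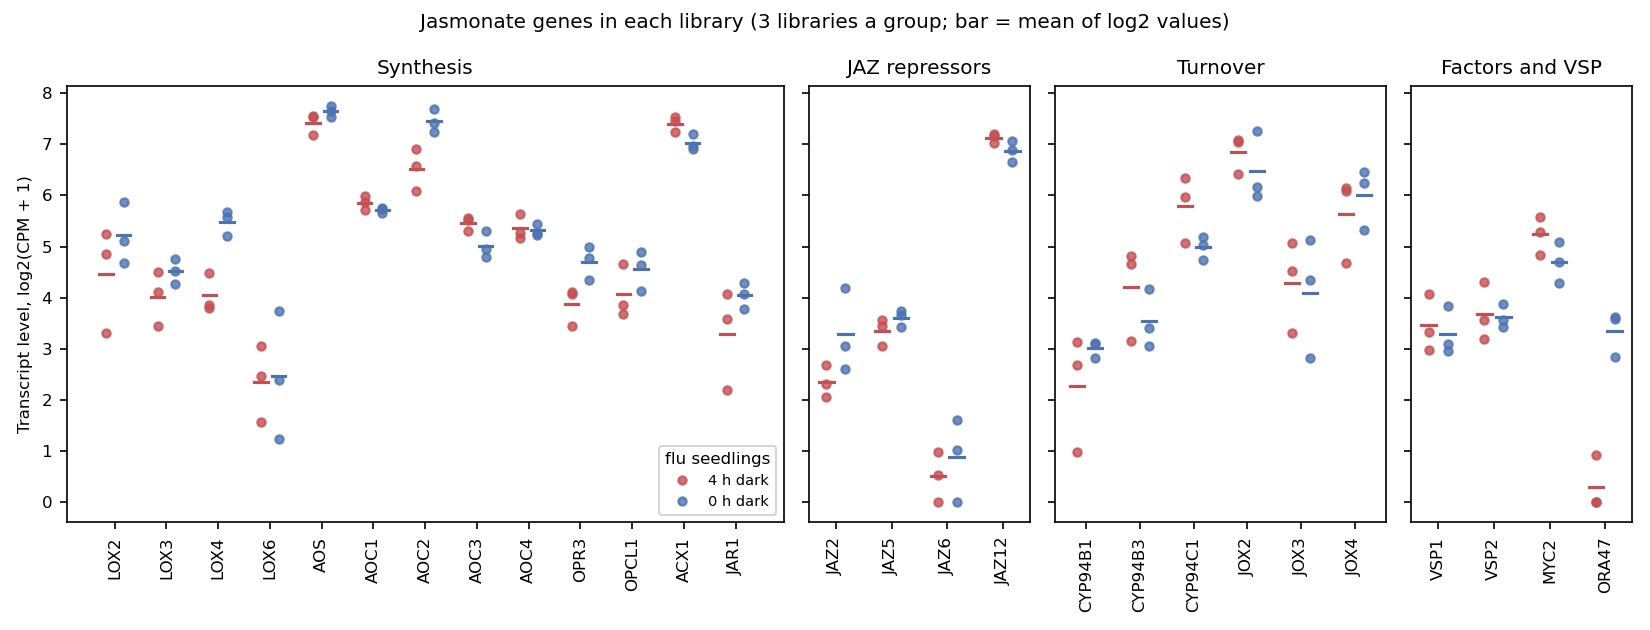
Transcript level of the 27 members in the table, as log2(CPM + 1) on the vertical axis, in 3 libraries of *flu* seedlings after 4 h (red, left of each pair) and 3 after 0 h (blue, right) of darkness; short bars are means of the log2 values. LOX4, AOC2 and ORA47 show no overlap between groups, whereas most other members overlap.

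Upstream sequence of the 4 called genes is shown because 2 factors of the pathway have known elements, MYC2 the G-box CACGTG and ORA47 the element CGNCCA. Windows of 300 bases directly before the annotated gene start were read on the gene's own strand from RefSeq TAIR10.1, and capitals mark any match to either element on either strand. The windows lie at chr1:28143551-28143850 (plus strand) for ORA47, chr1:27308213-27308512 (plus strand) for LOX4, chr3:9406369-9406668 (plus strand) for AOC2 and chr2:11808979-11809278 (plus strand) for CYP94C1.
ORA47: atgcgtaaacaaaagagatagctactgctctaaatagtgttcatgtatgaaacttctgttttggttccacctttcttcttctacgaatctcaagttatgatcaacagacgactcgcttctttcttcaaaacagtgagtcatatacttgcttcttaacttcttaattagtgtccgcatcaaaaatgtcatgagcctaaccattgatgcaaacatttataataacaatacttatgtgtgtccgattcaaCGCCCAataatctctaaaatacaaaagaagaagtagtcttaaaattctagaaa
LOX4: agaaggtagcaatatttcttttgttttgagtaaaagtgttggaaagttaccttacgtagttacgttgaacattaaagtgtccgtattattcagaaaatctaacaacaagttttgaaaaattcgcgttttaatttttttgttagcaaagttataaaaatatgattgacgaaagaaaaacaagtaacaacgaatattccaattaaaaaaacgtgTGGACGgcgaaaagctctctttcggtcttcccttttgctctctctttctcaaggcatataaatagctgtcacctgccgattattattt
AOC2: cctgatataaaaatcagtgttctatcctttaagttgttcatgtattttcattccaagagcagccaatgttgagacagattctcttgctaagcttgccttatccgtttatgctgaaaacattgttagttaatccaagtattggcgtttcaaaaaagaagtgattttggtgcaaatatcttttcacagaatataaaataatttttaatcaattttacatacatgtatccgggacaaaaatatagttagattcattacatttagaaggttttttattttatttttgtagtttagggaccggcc
CYP94C1: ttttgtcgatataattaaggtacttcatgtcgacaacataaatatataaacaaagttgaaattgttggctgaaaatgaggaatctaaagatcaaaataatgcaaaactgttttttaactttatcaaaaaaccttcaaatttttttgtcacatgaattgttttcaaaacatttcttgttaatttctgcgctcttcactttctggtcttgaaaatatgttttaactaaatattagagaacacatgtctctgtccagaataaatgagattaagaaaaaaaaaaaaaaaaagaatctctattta
The ORA47 window holds 1 CGNCCA match, beginning 53 bases before the gene start, and the LOX4 window holds 1 on the opposite strand, beginning 88 bases before it. Neither element was found in full in the windows of AOC2 and CYP94C1. The AOC2 window ends in cggcc, which fits CGNCCA up to its last base, and matches running past the gene start were not sought. Over the 36 listed members, 6 windows (16.7%) held CGNCCA, against 12.7% of 27443 protein-coding genes of chromosomes 1 to 5. The other members with CGNCCA were LOX2, AOC1, AOC3 and JAZ5, of which AOC1 holds 2 matches, and none of these was called. The G-box was also in 6 of 36 windows (16.7%), those of AOS, ACX1, JAZ2, JAZ3, JAZ7 and JAZ8, against 7.09% of all genes, and 4 of these 6 were JAZ genes. JAZ3, JAZ7 and JAZ8 were not among the genes measured. Of the 26 members tested, 3 (11.5%) held the G-box, against 8.22% of 10373 tested protein-coding genes. CGNCCA was in 6 of the 26 (23.1%), against 12.9% of those genes. A match of letters is a description and not a binding site.

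The largest difference among the members was that of ORA47 (AT1G74930, chromosome 1, 28143851 to 28145058, plus strand), an ERF-type factor known to activate jasmonate synthesis genes. It had 0, 1 and 0 reads in the 4 h libraries, against 18, 22 and 9 reads in the 0 h libraries, or 0, 0.90 and 0 CPM against 11.0, 11.3 and 6.19 CPM. The groups did not overlap. The ratio of scaled counts was 42.0, lower in the 4 h group, with an exact 95% counting interval of 7.19 to 1690 (edgeR adjusted p = 0.000149). Because ORA47 entered the test through its 0 h libraries alone, which was true of no other member, its reads are the description to go by and its p-value is no further support. It overlaps AT1G74929 on the other strand by 102 bases, so reads of the pair could be mixed if strand was ignored in counting.

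At the entry to the pathway, the 13-lipoxygenase gene LOX4 (AT1G72520, chromosome 1, 27308513 to 27312756) fell. LOX4 had 21.4, 13.5 and 12.8 CPM in the 4 h libraries, against 46.5, 35.9 and 50.2 CPM in the 0 h libraries. Every 4 h library was below every 0 h library. LOX4 thus fell by 1.39 on the log2 scale (edgeR adjusted p = 0.000381, SE 0.26), a value that stayed between -1.72 and -1.27 when single libraries were left out. The related genes were not called. LOX3, its closest relative, had 16.4, 21.7 and 9.89 CPM after 4 h and 18.3, 22.1 and 26.2 CPM after 0 h (log2 -0.45, 95% interval -1.08 to 0.17). LOX2, which supplies much of the jasmonate of wounded leaves, had 27.8, 37.0 and 8.90 CPM after 4 h and 24.5, 57.4 and 33.7 CPM after 0 h (log2 -0.63, 95% interval -1.30 to 0.04). LOX6 lay between 1.98 and 7.28 CPM after 4 h and between 1.38 and 12.3 CPM after 0 h (log2 -0.31, 95% interval -1.54 to 0.90).

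AOS (AT5G42650), the cytochrome P450 that commits the lipid to jasmonate, had 186, 183 and 143 CPM in the 4 h libraries and 199.9, 214 and 184 CPM in the 0 h libraries. Its log2 fold change was -0.22 (95% interval -0.55 to 0.11), so a change of 2-fold lies outside the interval. The 4 AOC genes, which encode the cyclase of the next step, did not move as one. AOC2 (AT3G25770, chromosome 3, 9406669 to 9408071) fell to 119, 93.9 and 67.2 CPM in the 4 h libraries, against 149.8, 170.3 and 204 CPM in the 0 h libraries, with no overlap (log2 -0.88, SE 0.19, edgeR adjusted p = 0.00177). Its neighbour AOC3 had 46.4, 45.2 and 38.6 CPM after 4 h and 30.0, 26.7 and 38.5 CPM after 0 h (log2 0.47, edgeR adjusted p = 0.158). AOC1 had 57.3, 62.3 and 51.4 CPM after 4 h and 49.5, 52.3 and 53.0 CPM after 0 h, with overlap (log2 0.15, 95% interval -0.25 to 0.54). AOC4 lay between 35.0 and 48.8 CPM after 4 h and between 36.7 and 42.7 CPM after 0 h (log2 0.04, 95% interval -0.41 to 0.49).

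The makeup of the AOC family can be read within each library, where scaling plays no part. AOC2 gave 46.1%, 37.5% and 34.5% of all AOC reads in the 4 h libraries (95% Wilson intervals 42.0 to 50.2, 32.0 to 43.4 and 28.2 to 41.4), against 56.3%, 59.4% and 60.4% in the 0 h libraries (intervals 51.6 to 60.9, 55.3 to 63.4 and 56.0 to 64.6). AOC3 gave 18.0%, 18.1% and 19.8% after 4 h and 11.3%, 9.3% and 11.4% after 0 h. The share of AOC2 was thus lower, and that of AOC3 higher, in every 4 h library. The shares are not independent, since fewer AOC2 reads raise the share of the others. Among AOC1, AOC3 and AOC4 reads alone AOC3 gave 33.4%, 28.9% and 30.2% after 4 h and 25.8%, 22.9% and 28.7% after 0 h, so the groups nearly touched, and AOC3 itself was not called. LOX4 gave 56.6%, 38.5% and 56.5% of the summed LOX3 and LOX4 reads after 4 h and 71.7%, 61.9% and 65.8% after 0 h, again without overlap. For each of these 3 shares an exact two-sided permutation test gave p = 0.1 (0.133 adjusted over the 4 shares compared), the smallest p that 3 against 3 libraries allow, and the shares were chosen after the values were seen. AOC1, AOC2 and AOC3 stand in a row on chromosome 3, with 1330 and 1088 bases between them, and no 2 of the AOC transcripts share a run of more than 14 bases in their last 300.

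**Figure D2:**
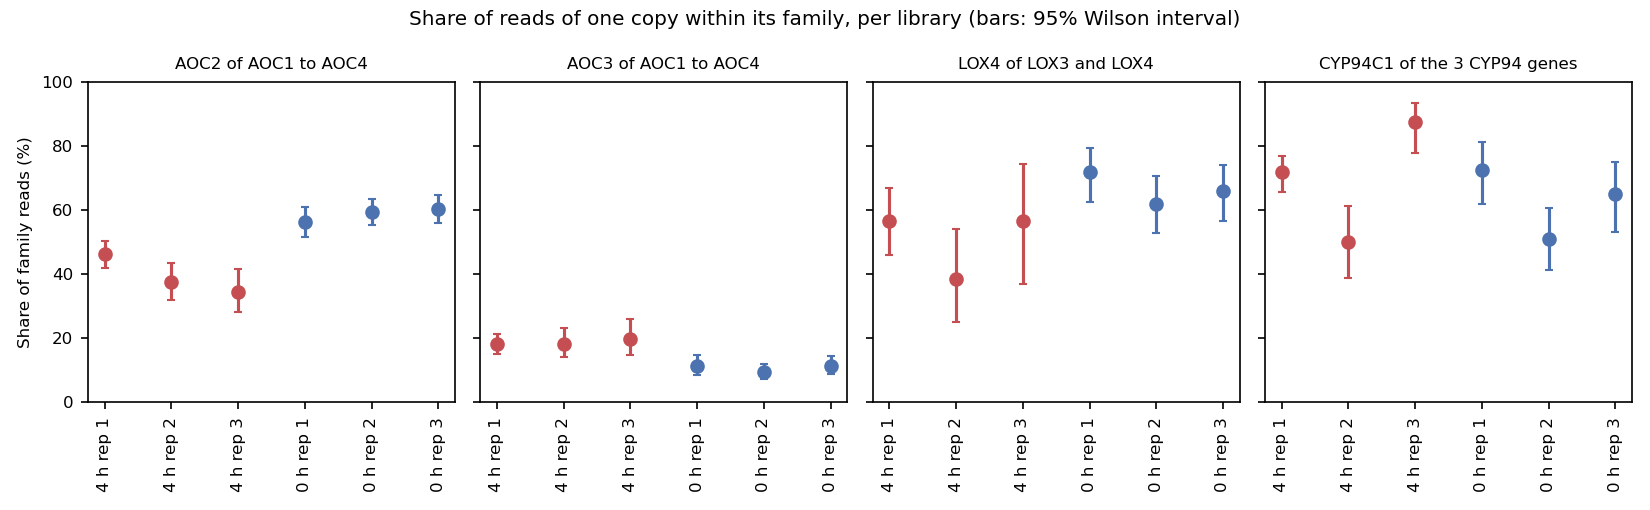
Percentage of the reads of a gene family that fell on one member, per library of *flu* seedlings (4 h of darkness in red, left, 0 h in blue, right), with 95% Wilson intervals that cover counting error only. AOC2 and LOX4 take a smaller and AOC3 a larger share in all 4 h libraries, whereas CYP94C1 shows overlap.

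Further down the pathway, OPR3 (AT2G06050), the reductase of the cyclic intermediate, had 16.4, 9.93 and 15.8 CPM in the 4 h libraries and 26.3, 30.8 and 19.3 CPM in the 0 h libraries. The groups did not overlap, but the log2 fold change of -0.84 (SE 0.30) missed the threshold at an edgeR adjusted p = 0.0507. It was past the threshold in 5 of 16 alternatives, with an adjusted p between 0.0289 and 0.209. OPCL1, the ligase that primes the side chain for shortening, lay between 11.9 and 24.1 CPM after 4 h and between 16.5 and 28.7 CPM after 0 h (log2 -0.41, 95% interval -1.04 to 0.22). ACX1 (AT4G16760), the first oxidase of chain shortening, had 183, 173 and 149 CPM after 4 h and 125, 146 and 119 CPM after 0 h, without overlap (log2 0.38, edgeR adjusted p = 0.12). JAR1 had 24, 4 and 16 reads after 4 h and 26, 25 and 27 reads after 0 h (log2 -0.62, 95% interval -1.41 to 0.16). In the synthesis group 9 of 13 genes had a negative log2 fold change and 4 a positive one, with a median of -0.41, and 5 of 13 (38.5%) showed no overlap between groups, against 32.3% of all genes. At an unadjusted p under 0.05 in edgeR 3 of the 13 were lower and 2 higher (38.5%, against 28.6% of all genes), and DESeq2 and limma-voom also called none higher.

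Of the JAZ repressors 4 of 12 were in the table. JAZ12 (AT5G20900) had 142, 130 and 145 CPM in the 4 h libraries and 117, 133 and 99.1 CPM in the 0 h libraries, with overlap (log2 0.25, 95% interval -0.09 to 0.60). On the other strand JAZ12 overlaps AT5G20910 by 28 bases and the non-coding AT5G03235 by 211 bases. Reads of these genes could be mixed if strand was ignored in counting. JAZ2 (AT1G74950), which has a G-box beginning 66 bases before its start, had 7, 6 and 4 reads after 4 h and 12, 10 and 25 reads after 0 h, replicate 3 being the highest 0 h library, and the groups overlapped in CPM. The log2 fold change of JAZ2 was -1.24 (SE 0.52, edgeR adjusted p = 0.103). JAZ5 had 16, 11 and 11 reads after 4 h and 19, 19 and 18 reads after 0 h, with overlap in CPM (log2 -0.30, 95% interval -1.06 to 0.45). JAZ6 had 2 reads over the 4 h and 5 over the 0 h libraries and was not tested. edgeR, DESeq2 and limma-voom called none of the 3 tested genes, and 1, JAZ2, was lower at an unadjusted p under 0.05 in edgeR. Without 0 h replicate 2 the log2 fold change of JAZ2 was -1.55 (edgeR adjusted p = 0.0363, lowest of a span over its alternatives that ends at 0.549). A 2-fold fall lies inside the 95% intervals of both JAZ2 (-2.33 to -0.19) and JAZ5, so it was not resolved by these data.

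Some of these genes are neighbours. ORA47 and JAZ2 lie 3.52 kb apart on chromosome 1 with 2 protein-coding genes between them. ORA47 had fewer reads after 4 h, whereas JAZ2 was not called and its groups overlapped in CPM. JAZ5 and LOX3 lie 19.8 kb apart and JAZ6 and LOX4 31.9 kb apart, in each case with the JAZ gene on the minus and the LOX gene on the plus strand. Of JAZ5, LOX3, JAZ6 and LOX4, LOX4 alone was called. Chromosome 1 carries 15 of the 36 listed members.

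Among the enzymes that end the signal, CYP94C1 (AT2G27690, chromosome 2, 11809279 to 11811280), one of the CYP94 enzymes that oxidise the jasmonate-isoleucine conjugate, was higher after 4 h of darkness. It had 80.5, 32.5 and 61.3 CPM in the 4 h libraries, against 35.5, 25.6 and 31.6 CPM in the 0 h libraries. Replicate 2 of the 4 h group fell within the 0 h range, so the groups overlapped. On the log2 scale CYP94C1 rose by 0.95 (SE 0.26), with an edgeR adjusted p = 0.00984. The call was lost without 4 h replicate 1, where the log2 fold change was 0.60 (edgeR adjusted p = 0.152). Over its alternatives the adjusted p ran between 0.00113 and 0.152.

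CYP94B3 (AT3G48520), which hydroxylates the conjugate, had 24.1, 27.1 and 7.91 CPM after 4 h and 7.34, 16.9 and 9.63 CPM after 0 h (log2 0.82, edgeR adjusted p = 0.145). Replicate 3 of the 4 h group was the low one, and without it the log2 fold change was 1.14 (edgeR adjusted p = 0.0333). Without 0 h replicate 2 it was 1.28 (edgeR adjusted p = 0.0342, where its alternatives spanned 0.0333 to 0.425). CYP94B1 stayed between 0.99 and 7.74 CPM after 4 h and between 6.11 and 7.69 CPM after 0 h (log2 -0.44, 95% interval -1.48 to 0.60).

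The JOX genes encode oxygenases that hydroxylate free jasmonate. JOX2 (AT5G05600) had 131, 135 and 85.0 CPM in the 4 h libraries and 70.3, 152 and 62.6 CPM in the 0 h libraries. Replicate 2 of the 0 h group stood above all 4 h libraries and its partners below them, and without it the log2 fold change was 0.85 (edgeR adjusted p = 0.00448), against 0.30 with all libraries (edgeR adjusted p = 0.461, where its alternatives spanned 0.00448 to 0.876). JOX4 (AT2G38240) had 69.6, 66.8 and 24.7 CPM after 4 h and 39.1, 87.2 and 75.0 CPM after 0 h (log2 -0.28, 95% interval -0.85 to 0.28). JOX3 had 21.8, 32.5 and 8.90 CPM after 4 h and 6.11, 33.8 and 19.3 CPM after 0 h (log2 0.09, 95% interval -0.75 to 0.92).

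The turnover genes mostly shared a highest 0 h and a lowest 4 h library. Replicate 2 was the highest 0 h library for 5 of the 6 and replicate 3 the lowest 4 h library for 5 of the 6, CYP94C1 being the exception in both. Over all 26 members tested, 0 h replicate 2 was the highest of its group for 15 (57.7%) and 4 h replicate 3 the lowest of its group for 17 (65.4%), against 33.6% and 34.7% of all genes. The trait was not particular to the turnover genes. For the 13 synthesis genes these libraries were highest for 6 (46.2%) and lowest for 10 (76.9%). For the 26 other genes of the pathway tested, described below, they were highest for 14 (53.8%) and lowest for 11 (42.3%). Summed over the 6 turnover genes the level was 335, 299.8 and 189 CPM in the 4 h libraries and 164, 324 and 206 CPM in the 0 h libraries. The spread inside each group was wider than the distance between their means, and the groups overlapped. The summed level of the 13 synthesis genes was steadier, at 750.4, 711 and 565 CPM after 4 h and 750.1, 847 and 807 CPM after 0 h. What set these libraries apart was not tested.

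**Figure D3:**
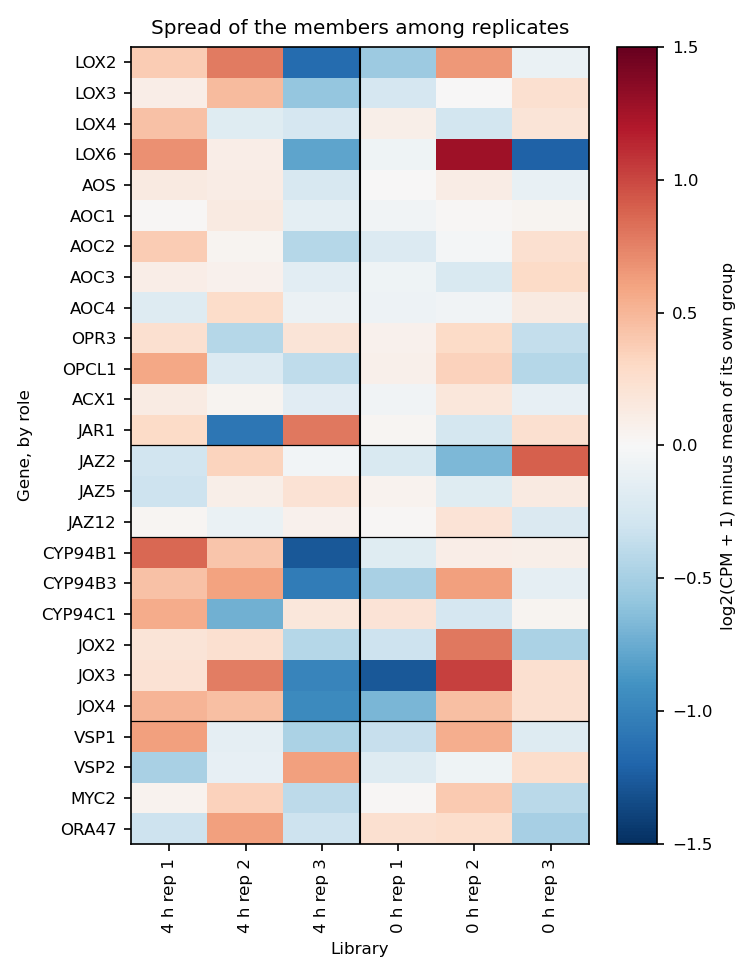
Deviation of each tested member, in log2(CPM + 1), from the mean of its own group (colour), by library (columns, 4 h then 0 h of darkness) and gene (rows, grouped as synthesis, JAZ, turnover, factors and VSP). Turnover genes other than CYP94C1 are lowest of their group in 4 h replicate 3 and highest in 0 h replicate 2, the last by little for CYP94B1.

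At the output of the pathway, MYC2 (AT1G32640), the main bHLH activator of jasmonate responses, had 38.2, 47.0 and 27.7 CPM in the 4 h libraries and 25.1, 32.8 and 18.6 CPM in the 0 h libraries. The groups overlapped (log2 0.55, SE 0.25, edgeR adjusted p = 0.15). MYC2 overlaps AT1G32630 on the other strand over 3241 bases, so reads of the pair could be mixed if strand was ignored in counting. The vegetative storage protein genes VSP1 and VSP2, classical markers of jasmonate response in leaves, were low. VSP1 had 35, 10 and 7 reads after 4 h and 11, 26 and 11 reads after 0 h (log2 0.27, 95% interval -0.54 to 1.09). VSP2 had 18, 12 and 19 reads after 4 h and 16, 21 and 20 reads after 0 h (log2 0.07, 95% interval -0.69 to 0.83). The last 300 bases of their transcripts share 75.0% of positions and a run of 46 bases, so the split of reads between this pair is uncertain.

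**Figure D4:**
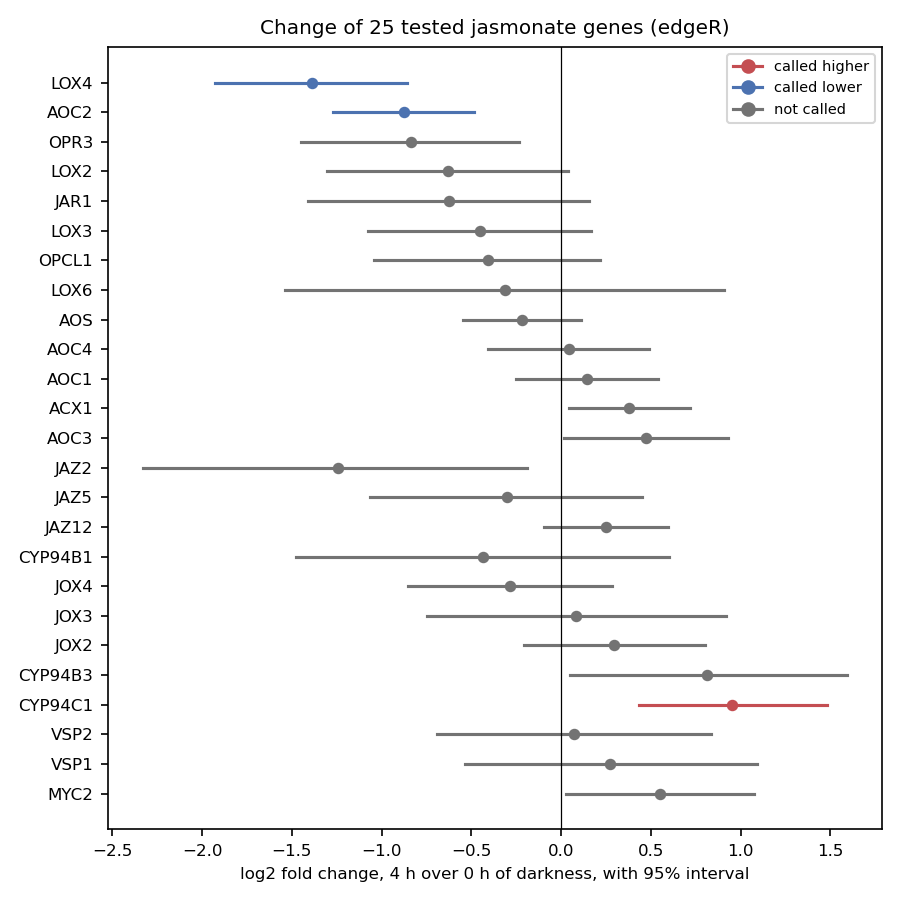
Log2 fold change (4 h over 0 h of darkness, horizontal axis) with its 95% interval from the edgeR fit for 25 tested members, grouped as synthesis, JAZ, turnover, factors and VSP. LOX4 and AOC2 lie below 0 and CYP94C1 above it among those called; ORA47 is left out because its 4 h group holds 1 read.

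To place the members, 36 other genes of the pathway, relatives of its enzymes included, were listed by role, and 27 were in the table and 26 tested. Among those tested 6 were higher and 2 lower (30.8%, against 16.6% of all genes), with a median log2 fold change of 0.31. Because the list holds genes outside the main route to jasmonate, such as OPR1, this share is not one of that route alone. The receptor gene COI1 had 13.6, 12.6 and 11.9 CPM after 4 h and 7.95, 14.4 and 8.26 CPM after 0 h (log2 0.31, 95% interval -0.42 to 1.04). NINJA, the adaptor that joins JAZ proteins to a corepressor, had 151.5, 159.8 and 180.0 CPM after 4 h and 112, 109 and 122 CPM after 0 h (log2 0.52, SE 0.16, edgeR adjusted p = 0.0287). TPL, that corepressor, had 403, 455 and 576 CPM after 4 h and 294, 262 and 358 CPM after 0 h (log2 0.65, SE 0.16, edgeR adjusted p = 0.00579). Both partners of the JAZ proteins were thus higher in every 4 h library. TPL overlaps AT1G15740 on the other strand by 103 bases, so reads of that pair could be mixed if strand was ignored in counting. The calls were sensitive to single libraries, that of NINJA being lost without 0 h replicate 1 or 2 or 4 h replicate 2 or 3 (edgeR adjusted p between 0.0507 and 0.105) and that of TPL without 4 h replicate 3 (0.0591).

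The relatives of MYC2 were not called, with a log2 fold change of 0.35 for MYC3 (95% interval -0.04 to 0.74) and of -0.35 for MYC4 (95% interval -1.97 to 1.25). JAM1, a bHLH repressor that competes with MYC2, had 19.1, 21.7 and 18.8 CPM after 4 h and 11.6, 10.3 and 17.9 CPM after 0 h, without overlap (log2 0.60, edgeR adjusted p = 0.205). Among enzymes, OPR1, a relative of OPR3 outside the main route to jasmonate, rose to 285, 289 and 248 CPM in the 4 h libraries, against 67.2, 104 and 71.6 CPM in the 0 h libraries. OPR1 thus rose by 1.75 on the log2 scale (edgeR adjusted p = 6.93e-08, SE 0.18) and was called in all 16 alternatives. OPR2, next to it, was at 0.95 (edgeR adjusted p = 0.0248), a call lost in DESeq2 (adjusted p = 0.0863) and without 0 h replicate 1 or 3 or 4 h replicate 1 or 3, and the annotations of OPR1 and OPR2 overlap by 216 bases. KAT2, the thiolase of peroxisomal chain shortening, rose by 0.52 (SE 0.14, edgeR adjusted p = 0.00887), a call lost without 0 h replicate 1 (0.0597). The acyl-CoA oxidase gene ACX3 had 3, 0 and 1 reads after 4 h and 6, 13 and 12 reads after 0 h (edgeR adjusted p = 0.016), and lost its call in DESeq2 (adjusted p = 0.0648) and without 0 h replicate 2 or 3 or 4 h replicate 2.

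Of the response genes, ERF1, a factor that joins ethylene and jasmonate signals, had 29.6, 29.8 and 25.7 CPM after 4 h and 4.89, 12.8 and 13.1 CPM after 0 h (log2 1.46, SE 0.32, edgeR adjusted p = 0.00183). ORA59, a related factor named after its values were seen, had 18.7, 17.2 and 21.8 CPM after 4 h and 36.7, 26.7 and 30.3 CPM after 0 h (log2 -0.70, edgeR adjusted p = 0.061). The groups did not overlap for either gene, and ORA59 was not called. TAT3, an aminotransferase gene used as a jasmonate marker, had 1, 0 and 0 reads after 4 h and 5, 25 and 6 reads after 0 h, a ratio of 30.8, lower after 4 h, with a counting interval of 5.19 to 1250 (edgeR adjusted p = 0.00216). Replicate 2 gave most of its 0 h reads, and without it the call was lost (edgeR adjusted p = 0.068). The remaining response genes tested were not called, at log2 fold changes of -0.31, 0.32 and 0.60 (edgeR adjusted p between 0.303 and 0.836). ACX3 and TAT3, like ORA47, had no 4 h library with 5 reads and entered the test through the 0 h group, where they were high, so their p-values are no further support. Leaving out ACX3 and TAT3 removed the 2 other pathway genes called lower, and 6 of 24 were then called (25%). That each of these 6 was higher follows from this step. The share of all genes called under the same requirement was not computed.

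**Figure D5:**
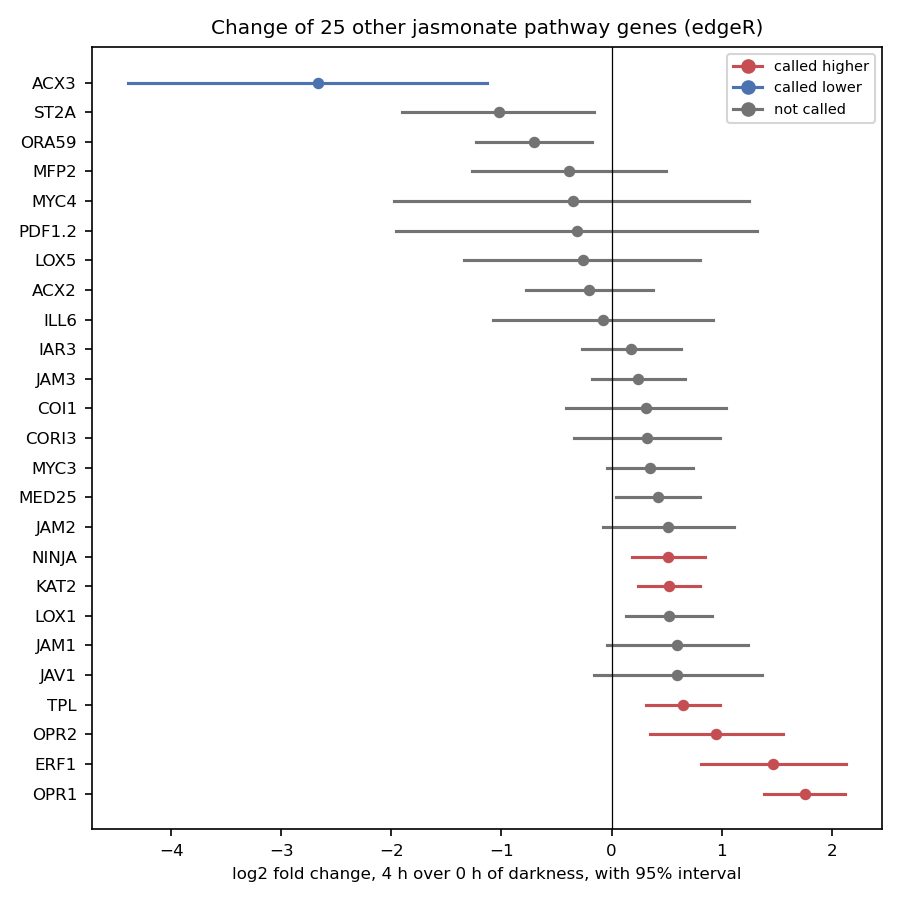
Log2 fold change (4 h over 0 h of darkness, horizontal axis) with its 95% interval from the edgeR fit for 25 other genes of the jasmonate pathway, relatives of its enzymes included, ordered by value. OPR1 at 1.75 and ERF1 at 1.46 head the 6 called higher; TAT3 is left out because its 4 h group holds 1 read.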

How the data were processed

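Total RNA of whole *flu* seedlings was profiled by bulk MARS-seq, which reads transcript 3′ ends, in 6 libraries grouped by their titles. Going by the study's methods and the submitters' processing notes, trimming of reads was done with cutadapt 1.8.3, mapping with STAR to an Araport reference and counting per gene with HTSeq. The authors deposited whole-number counts without a filter on molecular identifiers, so they may include amplification copies. Of their other deposited columns, a signal (counts over a library's size factor) served for 1 alternative, and regularised log2 values were not used. Labels name continuous light and the methods a day/night cycle for growth.

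A gene was kept where 1 library or more had 5 reads or more. After TMM scaling all kept genes entered a quasi-likelihood fit of group (edgeR 4.0.16 in R 4.3.3), and p-values were adjusted by Benjamini-Hochberg over them, with 0.05 as threshold. Intervals are 95% intervals of the fit. Positions and sequence came from RefSeq TAIR10.1, in which all 36 identifiers matched. Strand setting of the counting is not given in the sources used here. The members and lists were chosen with earlier results of these data known. Members past the threshold or with a mean of at least 50 CPM in a group are given per library, and other members are so given where chosen after their values were seen. Of other pathway genes, COI1, MYC3, MYC4, NINJA, JAM1 and those past the threshold are named, and ORA59, which did not pass, was named after its values were seen. A planned comparison of JAZ protein motifs was not run. The scripts were tested on simulated data. Alternatives were DESeq2 1.42.0, limma-voom (limma 3.58.1), other scalings and filters, a block for replicate number, the omission of each library in turn and the omission of organelle genes. The deposited size factors were added after seeing the data. Replicate pairs of a group differed beyond sampling noise (chi-square per degree of freedom 2.86 to 5.48).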

Additional observations from a re-analysis of the deposited data

How the results depend on the processing

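Over 413 refits of single members (26 genes), 403 kept the side of the threshold, 1 call was lost (CYP94C1), 9 were gained (5 of OPR3, 2 of CYP94B3, 1 each of JAZ2 and JOX2) and none was called in the opposite direction. LOX4 and AOC2 were called in all 16 alternatives, at log2 fold changes of -1.72 to -1.27 and -1.11 to -0.70. DESeq2 called 522 of all genes lower, against 869 in edgeR, and 1 other pathway gene lower, against 2. After filterByExpr 1 other pathway gene was lower, and the factors and storage protein genes had 0 lower because that filter removes ORA47. Leaving out single libraries, 569 to 723 of all genes were lower, 0 to 3 members and 0 to 3 turnover genes were higher, 0 to 1 JAZ gene was lower, and 3 to 6 other pathway genes were higher and 0 to 3 lower. The count of all genes lower was 569 without 4 h replicate 2. Members called higher, all of them turnover genes, numbered 3 without 0 h replicate 2, 2 without 4 h replicate 3 and 0 without 4 h replicate 1, and the JAZ call came without 0 h replicate 2. Other pathway genes higher numbered 3 without 0 h replicate 1, and those lower 0 without 0 h replicate 2 and 1 without 0 h replicate 3 or 4 h replicate 2.

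With the replicate number as a block 4 members were lower, OPR3 being added at a log2 fold change of -0.85 (edgeR adjusted p = 0.0361), and 1 was higher, and of all genes 988 were higher and 991 lower. Same-numbered libraries deviated from their group means with correlations of 0.0224, 0.0206 and 0.0552, too weak to show pairing, although each library correlated best with its own number. Wide 95% intervals were seen for LOX6, JAZ2 and CYP94B1, at -1.54 to 0.90, -2.33 to -0.19 and -1.48 to 0.60 on the log2 scale, and depth and replicate spread were not told apart in them.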
